A study of Mus musculus with 13 samples.

Results

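The hippocampus of saline-injected Kmt2d+/βGeo mice was compared with that of wild-type mice given the same injections. The 6 arrays, 3 heterozygous and 3 wild type, were those whose titles place them in the second of the 2 experiments, out of 13 arrays in the series. All 6 mice were C57BL/6J females aged 1 to 2 months, were fed standard chow and received 3 injections of saline vehicle a day as controls for another experiment. The wild-type mice were Kmt2d+/+ and the heterozygous mice carried 1 βGeo gene trap allele of Kmt2d, the mouse model of Kabuki syndrome. Whole hippocampi were profiled, each mouse on its own array. The other 7 arrays, from 4 wild-type and 3 Kmt2d+/βGeo mice without injections, were used only where values of uninjected mice are given. The labels give the sex of 1 of these, a wild-type mouse, as unknown, and its array had Xist at 4.81 and Eif2s3y at 8.14 log2 units, against 10.70 to 11.12 and 3.56 to 3.67 in the other 6. Low Xist with high Eif2s3y, a Y-linked gene, is the pattern of a male. Unless this mouse is said to be left out, the values of uninjected mice include it.

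Kmt2d is a histone methyltransferase that adds methyl groups to lysine 4 of histone H3, mostly at enhancers and promoters of active genes, within a complex that also holds the H3K27 demethylase Kdm6a and the subunits Paxip1, Ncoa6 and Pagr1a. Loss of 1 copy in humans causes Kabuki syndrome, with intellectual disability. The hippocampus serves memory, and its dentate gyrus goes on making neurons after birth. A genotype comparison in mice of this model asks which transcripts in the hippocampus differ when 1 copy of Kmt2d is trapped.

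The expression level of a gene is given as the log2 intensity of its probe set, and a difference is the heterozygous mean minus the wild-type mean on that log2 scale, ± the standard error (SE) from limma, a linear model with variances moderated over all genes. Kmt2d itself was read by a pair of probe sets that behaved differently. The dimmer of them, 10432294, was at 8.76, 8.32 and 8.51 in the wild-type mice and at 7.88, 7.999 and 8.18 in the heterozygous mice, so that the groups did not overlap. Its difference was -0.51 ± 0.15, which is 70.3% of the wild-type level (exact permutation p = 0.1, two-sided, the smallest that 3 against 3 mice allow; limma adjusted p = 0.939 over all probe sets). The brighter one, 10432298, was at 9.46, 9.62 and 9.82 in wild-type and 9.80, 9.77 and 9.49 in heterozygous mice, with overlapping groups and a difference of 0.06 ± 0.14 (exact permutation p = 0.8). The labels do not place either probe set before or after the trap, and the genotype labels are therefore checked only in part.

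The arrays carried the transcripts of the labelled tissue. Prox1, the transcription factor of dentate granule cells, was at 8.21 to 9.05, Wfs1, which marks CA1, at 10.23 to 10.88, and Pcp4, which is high in CA2, at 12.04 to 12.23 log2 units. Xist, made from the inactive X chromosome, was at 11.28 to 11.48, and the Y-linked genes Eif2s3y and Kdm5d stayed at 3.57 to 3.65 and 4.73 to 4.83, in 6 mice that are all labelled female. The array medians were 7.04 to 7.08. Heterozygous replicate 3 stood apart from the others: its correlations with the other arrays were 0.985 to 0.990, against 0.990 to 0.994 among the remaining 5, and it lay at the extreme of the first principal component, which held 38.6% of the variance. Values without it, or without another mouse, are given beside the results that they are named with.

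No gene passed the threshold. Of 19938 genes, 0 (0%) had a limma adjusted p under 0.05, and the smallest adjusted p was 0.916. At an unadjusted limma p under 0.05, 495 genes (2.48%) were higher and 513 (2.57%) lower in heterozygous mice. In 860 genes (4.31%) every heterozygous mouse was above every wild-type mouse, and in 1033 (5.18%) every heterozygous mouse was below. The median SE of a difference was 0.13 and a 95% interval, not adjusted for the number of genes, reaches 2.17 SEs to either side. The values that follow describe these 6 mice, and none of the named genes passed the adjusted threshold.

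**Figure D1:**
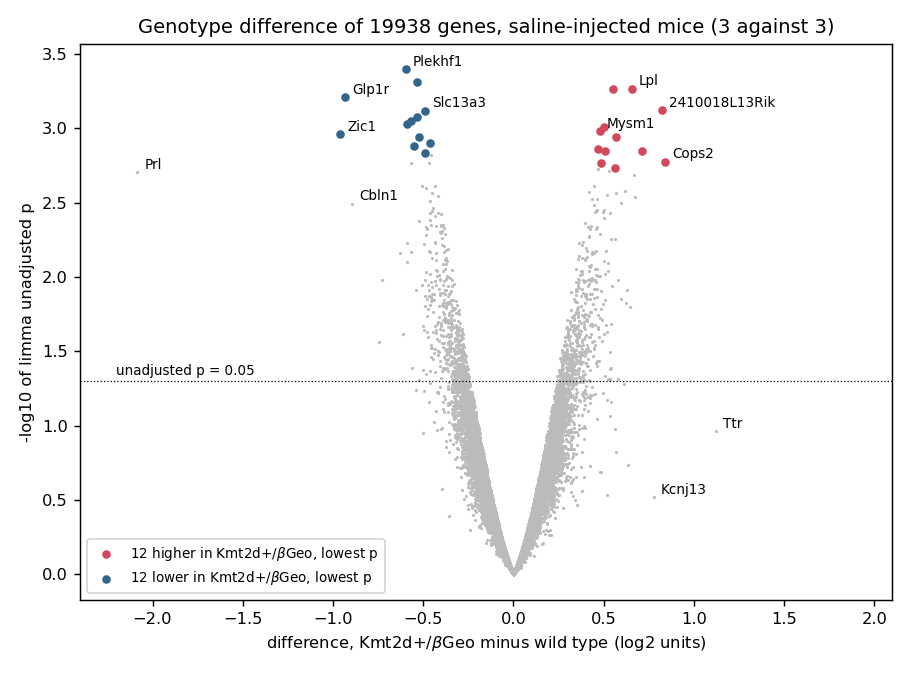
Difference of each of the 19938 genes (heterozygous minus wild type, log2 units, x axis) against the -log10 of its unadjusted limma p (y axis), with 1 grey point a gene, the 12 higher genes of lowest p in red, the 12 lower in blue and the unadjusted p of 0.05 as a dotted line. No gene passed the adjusted threshold; Prl had the largest difference at -2.08, while Ttr at 1.12 lay below the dotted line.

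The 12 genes of lowest p that were higher in heterozygous mice differed by 0.47 to 0.84, or 1.38-fold to 1.79-fold, and the 12 that were lower by -0.96 to -0.46, or 1.38-fold to 1.95-fold. In all 24 the groups did not overlap, which is how genes of lowest p come to be chosen. Of the higher ones, 8 had a mean below the median of the arrays, and 3 of the lower ones did. The wild-type and heterozygous values of each are shown in the plot of the 24 genes by mouse.

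Of the higher genes, Mysm1, which removes ubiquitin from histone H2A, was at 7.53, 7.59 and 7.53 in wild-type and at 7.93, 8.08 and 8.06 in heterozygous mice, a difference of 0.48 ± 0.11. Hltf, a helicase-like protein of the SWI/SNF family that acts in DNA damage tolerance, was at 6.73, 6.61 and 6.63 against 6.97, 7.25 and 7.20, a difference of 0.48 ± 0.12. In both genes the 3 wild-type mice lay close together and each heterozygous mouse was above them. Cops2, a subunit of the COP9 signalosome that removes Nedd8 from ubiquitin ligases, had the second largest positive difference of all genes, 0.84 ± 0.21. Its values were 7.79, 7.32 and 7.40 in wild-type and 7.85, 8.36 and 8.83 in heterozygous mice, where heterozygous replicate 1 was next to wild-type replicate 1 and replicate 3 was highest. Without replicate 3 the difference of Cops2 was 0.60. Utp18, of the complex that processes ribosomal RNA of the small subunit, differed by 0.51 ± 0.12, from 6.81 to 7.01 in wild-type and 7.24 to 7.52 in heterozygous mice. The zinc finger genes Zfp709 and Zfp101 differed by 0.50 ± 0.12 and 0.47 ± 0.11. Zfp709 was dim, at 4.27 to 4.40 in wild-type and 4.72 to 4.93 in heterozygous mice, and probe sets of such families can also read related genes.

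Among the other higher genes, Lpl, the lipase that frees fatty acids from lipoproteins, was at 7.51, 7.36 and 7.79 in wild-type and 8.03, 8.24 and 8.36 in heterozygous mice, a difference of 0.65 ± 0.14. It was also higher in the heterozygous mice without injections, by 0.34 ± 0.16. Lyrm1, of the LYR motif family, was at 6.38, 6.41 and 6.64 against 7.02, 7.06 and 6.99, a difference of 0.55 ± 0.12, and the uninjected mice differed by 0.03 ± 0.08. Ppid, a cyclophilin that works with Hsp90, differed by 0.56 ± 0.14, from 7.99 to 8.40 in wild-type and 8.58 to 8.92 in heterozygous mice. The remaining 2 were the uncharacterised 2410018L13Rik, at 5.81, 6.56 and 6.57 against 7.17, 7.25 and 6.99 with a difference of 0.82 ± 0.18, and Gm10777, a difference of 0.57 ± 0.14. Wild-type replicate 1 was the low one of 2410018L13Rik.

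Mir99a, the gene of a microRNA that is made together with let-7c and miR-125b neighbours, was the one microRNA among the 24. Its probe set was at 6.14, 5.43 and 5.82 in wild-type and 6.29, 6.54 and 6.70 in heterozygous mice, a difference of 0.71 ± 0.17. The array was labelled from whole transcripts and does not read mature microRNAs apart from their precursors. In the same cluster Mirlet7c-1 differed by -0.16 ± 0.13 and Mir125b-2 by 0.17 ± 0.13, both at levels of 3.88 to 4.36 log2 units. The mature sequence is shown because the seed, bases 2 to 8 in capitals, is what pairs with targets. It stands in RefSeq (GRCm38.p6) at chr16:77598940-77598961 on the plus strand, and its seed is shared by miR-99b-5p and miR-100-5p.
miR-99a-5p: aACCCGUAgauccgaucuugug

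**Figure D2:**
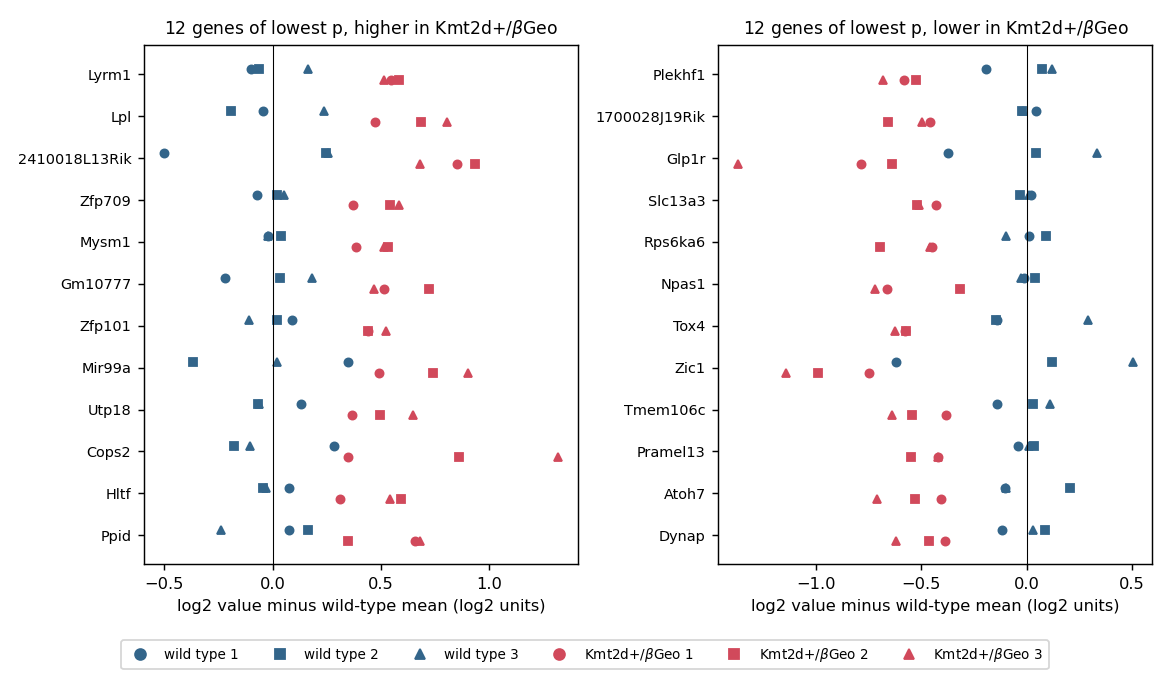
Values of the 24 genes of lowest p in each mouse, as log2 value minus the wild-type mean of that gene (x axis), with wild-type mice in blue, heterozygous mice in red and replicates 1, 2 and 3 as circles, squares and triangles. In all 24 the heterozygous mice lie to 1 side of the wild-type mice, by 0.47 to 0.84 on average in the left panel and -0.96 to -0.46 in the right. Heterozygous replicate 3 is the farthest heterozygous mouse in most of the 24, among them Cops2, Glp1r, Zic1, Lpl, Utp18 and Tmem106c.

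The lower genes were led in size by Zic1 and Glp1r. Zic1, a zinc finger transcription factor of the developing and adult forebrain midline, was at 8.26, 8.99 and 9.38 in wild-type and 8.13, 7.89 and 7.73 in heterozygous mice, a difference of -0.96 ± 0.23 (95% interval -1.45 to -0.47). Wild-type replicate 1 was only slightly above the highest heterozygous mouse. Glp1r, the receptor of glucagon-like peptide 1, was at 7.18, 7.60 and 7.89 against 6.77, 6.91 and 6.18, a difference of -0.93 ± 0.20 (95% interval -1.38 to -0.49), with heterozygous replicate 3 lowest. Without that mouse the differences were -0.87 for Zic1 and -0.71 for Glp1r, and without wild-type replicate 3 they were -0.71 and -0.77. Both were also lower in heterozygous mice without injections, Zic1 by -1.09 ± 0.28 and Glp1r by -1.12 ± 0.38, and without the mouse of unknown sex by -0.95 ± 0.28 and -0.92 ± 0.38. They belong to the list of septum and basal forebrain genes described below. Cbln1, a secreted organiser of synapses, had the fourth largest negative difference, -0.89 ± 0.24, from 7.43, 8.21 and 8.26 in wild-type to 7.60, 6.93 and 6.68 in heterozygous mice, where wild-type replicate 1 and heterozygous replicate 1 overlapped.

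Of the lower genes with smaller differences, several had very even wild-type values. Slc13a3, a sodium-coupled transporter of dicarboxylates, was at 9.23, 9.18 and 9.22 in wild-type and 8.78, 8.69 and 8.69 in heterozygous mice, a difference of -0.49 ± 0.11. Npas1, a transcription factor of inhibitory neurons, was at 7.66, 7.71 and 7.64 against 7.01, 7.35 and 6.95, a difference of -0.57 ± 0.13, and in uninjected mice it differed by 0.20 ± 0.09. Tox4, a subunit of a chromatin-bound protein phosphatase 1 complex, was at 7.45, 7.45 and 7.89 against 7.02, 7.02 and 6.97, a difference of -0.59 ± 0.14. In these 3 genes each heterozygous mouse was below all wild-type mice, and wild-type replicate 3 stood above the others only for Tox4. Plekhf1, an endosomal protein that binds phosphoinositides, had the lowest p of all genes and was at 7.94, 8.20 and 8.25 against 7.55, 7.60 and 7.45, a difference of -0.60 ± 0.12. Rps6ka6, the kinase RSK4, differed by -0.53 ± 0.12, and Atoh7, a basic helix-loop-helix factor known from retinal ganglion cells, by -0.55 ± 0.13. The others were 1700028J19Rik (-0.54 ± 0.11), Tmem106c (-0.52 ± 0.12), Dynap (-0.49 ± 0.12) and Pramel13 (-0.46 ± 0.11), the last from a family of near-identical copies that its probe set may not tell apart.

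The promoters of 3 of these genes are shown for their CG dinucleotides, since H3K4 methylation is concentrated at promoters rich in CG. Each is the 250 bases before the transcription start in RefSeq (GRCm38.p6), read 5′ to 3′ on the gene's strand, with every CG in capitals. Zic1 (chr9:91365769-91366018, minus strand) holds 27, Glp1r (chr17:30901617-30901866, plus strand) 26 and Mysm1 (chr4:94979101-94979350, minus strand) 19.
Zic1: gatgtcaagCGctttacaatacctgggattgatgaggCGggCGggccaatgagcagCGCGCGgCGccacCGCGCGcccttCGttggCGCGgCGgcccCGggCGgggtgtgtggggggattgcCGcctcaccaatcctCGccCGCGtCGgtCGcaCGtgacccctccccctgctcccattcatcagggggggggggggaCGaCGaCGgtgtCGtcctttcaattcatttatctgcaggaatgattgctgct
Glp1r: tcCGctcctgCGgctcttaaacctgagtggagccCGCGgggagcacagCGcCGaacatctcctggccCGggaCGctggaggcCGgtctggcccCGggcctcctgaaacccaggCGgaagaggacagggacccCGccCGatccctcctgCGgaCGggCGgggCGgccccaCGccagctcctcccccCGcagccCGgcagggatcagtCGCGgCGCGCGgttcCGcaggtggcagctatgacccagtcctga
Mysm1: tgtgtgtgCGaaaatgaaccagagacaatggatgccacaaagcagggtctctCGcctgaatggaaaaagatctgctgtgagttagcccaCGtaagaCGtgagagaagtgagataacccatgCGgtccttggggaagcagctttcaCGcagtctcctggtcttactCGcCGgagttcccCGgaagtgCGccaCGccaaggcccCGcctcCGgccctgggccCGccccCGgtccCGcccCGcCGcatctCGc

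A CG reads the same on both strands, and 54.6% of the 15614 genes with such a window held 10 or more, with a median of 11. Of the 12 higher genes of lowest p, 9 had a window and 7 of these held 10 or more, and of the 12 lower ones 11 had a window and 7 did. Counts in these windows ran from 0 in Lyrm1 and 1700028J19Rik to 27 in Zic1 and Tmem106c, so the 3 promoters shown are from the richer ones. Among genes of unadjusted p under 0.05, 247 of the 380 higher genes with a window (65.0%) and 181 of the 383 lower ones (47.3%) held 10 or more, with medians of 13 and 9. Without heterozygous replicate 3 the shares were 53.4% of 290 and 46.3% of 272, so the share among the higher genes was then not above that of all genes, while it still lay above that among the lower genes. In the uninjected mice they were 53.8% of 545 and 51.7% of 460.

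Of the largest differences, those of Prl, Ttr and Kcnj13, like that of Cbln1, lay outside the 24 genes of lowest p. Prl, Ttr and Kcnj13 varied widely between mice. Prl, the pituitary hormone prolactin, was at 6.35, 9.20 and 6.76 in wild-type and 5.73, 5.0004 and 5.33 in heterozygous mice, a difference of -2.08 ± 0.53, or 4.24-fold. Wild-type replicate 2 was far above the others, and without it the difference was -1.20. In uninjected mice Prl differed by 0.47 ± 0.64, or 0.18 ± 0.67 without the mouse of unknown sex. Gh, growth hormone, was highest in the same mouse, at 6.69, 8.28 and 7.03 against 6.70, 6.52 and 6.55, a difference of -0.75 ± 0.30 with it and -0.27 without it. Pomc, the precursor of corticotropin, was at 7.03, 6.84 and 7.31 against 6.54, 6.72 and 6.51 and differed by -0.48 ± 0.14. Of the 14 measured hormone genes of hypothalamus and pituitary 6 were above 0 and 8 below, with a median difference of -0.07 that was 0.003 without heterozygous replicate 3, and Tshb and Cga, other pituitary hormone genes, were at 4.60 to 5.02 and 5.39 to 5.89. Ttr, transthyretin of the choroid plexus, was at 12.35, 13.33 and 9.63 in wild-type and 13.03, 12.52 and 13.13 in heterozygous mice, a difference of 1.12 ± 0.65 that was 0.05 without wild-type replicate 3. Kcnj13, a potassium channel of the same epithelium, was at 8.75, 9.95 and 6.32 against 9.07, 7.997 and 10.28, with a difference of 0.78 ± 0.72 that was -0.23 without wild-type replicate 3.

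Whole hippocampi can carry tissue from their borders, and lists of genes that mark those tissues and the cell types were read in each mouse. In such bulk RNA, fewer cells of a type and less RNA per cell cannot be told apart. The median over all 19938 genes was -0.01, with 47.0% above 0. Genes of the septum and basal forebrain, which adjoin the front of the hippocampus, lay mostly below wild type in heterozygous mice: 13 of the 14 measured were below 0, with a median difference of -0.28. In 6 of them (42.9%) every heterozygous mouse was below every wild-type mouse, against 5.18% of all genes. The list medians by mouse, relative to the mean of the 6 arrays, were 0.09, 0.17 and 0.07 in wild-type and -0.03, -0.18 and -0.17 in heterozygous mice. Leaving out 1 mouse at a time gave medians of -0.31 to -0.23. Beside Zic1 and Glp1r, Ecel1, a peptidase of neurons, was at 8.0007, 8.35 and 8.08 against 7.99, 7.64 and 7.40 and differed by -0.47 ± 0.16. Slc18a3, which loads acetylcholine into vesicles, differed by -0.33 ± 0.13, Zic2 by -0.38 ± 0.15, Zic4 by -0.25 ± 0.12 and Zic5 by -0.30 ± 0.15. Slc10a4, of cholinergic vesicles, was at 5.82, 6.57 and 5.95 against 5.94, 5.83 and 4.997, a difference of -0.52 ± 0.24. Chat, which makes acetylcholine, was dim in every mouse, at 5.71 to 5.99, and differed by -0.16 ± 0.11, and Lhx8 by 0.06 ± 0.12. In the uninjected mice 0 of the 14 were above 0 and the median was -0.67, or 1 and -0.58 without the mouse of unknown sex. Striatal and choroid plexus genes were as low in the uninjected mice, with medians of -0.68 (1 of 18 above 0) and -0.80 (0 of 25). In the injected mice those 2 lists had medians of -0.05 and 0.25. Earlier results of these data had already shown the septal genes lower over both experiments, so the septal list is no independent evidence. What part the septal tissue in each sample had in the difference of Zic1 and Glp1r was not tested.

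Genes of meningeal fibroblasts were also mostly lower. Of 23 measured, 20 were below 0, with a median of -0.22 and, leaving out 1 mouse at a time, of -0.35 to -0.14. Islr, a secreted protein of stromal cells, was at 8.42, 8.41 and 8.12 against 7.99, 7.72 and 7.72 and differed by -0.51 ± 0.13. Col6a3, a chain of collagen VI, was at 7.35, 7.40 and 7.43 against 7.06, 7.02 and 6.90 and differed by -0.40 ± 0.11, and Foxd1, a forkhead factor, by -0.43 ± 0.14. Pcolce, which helps to process procollagen, differed by -0.44 ± 0.18 and Fbln1 by -0.31 ± 0.13. The list medians by mouse were 0.27, 0.08 and -0.08 in wild-type and -0.01, -0.20 and -0.11 in heterozygous mice, so that the groups overlapped. The collagens that are most abundant in meninges, Col1a1 and Col3a1, differed by -0.12 ± 0.12 and -0.02 ± 0.14.

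Ependymal genes, which build the motile cilia of the ventricle wall, were higher in 16 of 26, with a median of 0.15 that was 0.08 to 0.18 without each mouse. Ak7, an adenylate kinase of cilia, was at 6.14, 6.40 and 6.29 against 6.57, 6.69 and 6.95 and differed by 0.46 ± 0.13. Tmem212 differed by 0.35 ± 0.14, Sntn, of the ciliary tip, by 0.30 ± 0.12, and Mlf1 by 0.37 ± 0.15. Foxj1, the factor that switches on the cilia programme, differed by 0.04 ± 0.16. In the uninjected mice the list lay the other way, with 24 of 26 below 0 and a median of -0.26. Choroid plexus genes were above 0 in 21 of 25 with a median of 0.25. In 0 of the 25 were the groups apart, against 4.31% of all genes apart and higher and 5.18% apart and lower. Their medians by mouse were -0.13, 0.52 and -0.62 in wild-type and 0.14, -0.26 and 0.56 in heterozygous mice, and without wild-type replicate 3 the median over genes was -0.001. Beside Ttr and Kcnj13, Otx2, the transcription factor of this epithelium, was at 6.34, 6.99 and 6.14 against 7.02, 6.58 and 7.51, a difference of 0.54 ± 0.24 that was 0.31 without heterozygous replicate 3. Without that mouse the list's median was 0.07, and without wild-type replicate 2 it was 0.51. In the uninjected mice 0 of the 25 choroid plexus genes were above 0 and their median was -0.80, or -0.67 without the mouse of unknown sex.

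Genes of myelinating oligodendrocytes were above 0 in 19 of 23, with a median of 0.18. Wild-type replicate 1 was low in them, with a median by mouse of -0.45, against 0.23 and 0.01 in the other wild-type and -0.05, 0.19 and 0.21 in the heterozygous mice, and without it the median over genes was -0.10. Tspan2, a tetraspanin of myelin, was at 9.56, 9.79 and 9.80 against 9.93, 10.26 and 10.41 and differed by 0.48 ± 0.14. Mbp, the basic protein of myelin, differed by -0.07 ± 0.15 and Mog by 0.30 ± 0.17. In the uninjected mice the oligodendrocyte list lay the other way, with 22 of 23 below 0 and a median of -0.25. Without the mouse of unknown sex that median was -0.22. Of the other glia, microglial genes were below 0 in 17 of 21, with a median of -0.12 that was -0.04 without heterozygous replicate 3. Olfml3 differed by -0.47 ± 0.14 and the protease Ctss by -0.30 ± 0.13, whereas the receptor Fcrls differed by 0.49 ± 0.18. Without heterozygous replicate 3, Ctss was at -0.18 and Fcrls at 0.32, and without wild-type replicate 1 Fcrls was at 0.30. Astrocyte genes were above 0 in 10 of 20 with a median of 0.01, and Agt, angiotensinogen, differed by -0.57 ± 0.17, or -0.36 without heterozygous replicate 3. Oligodendrocyte precursor genes were above 0 in 7 of 14 (median 0.03) and genes of endothelium and pericytes in 9 of 21 (-0.03, and 0.04 without heterozygous replicate 3). Blood genes were above 0 in 2 of 6 (-0.08, and 0.04 without heterozygous replicate 2).

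**Figure D3:**
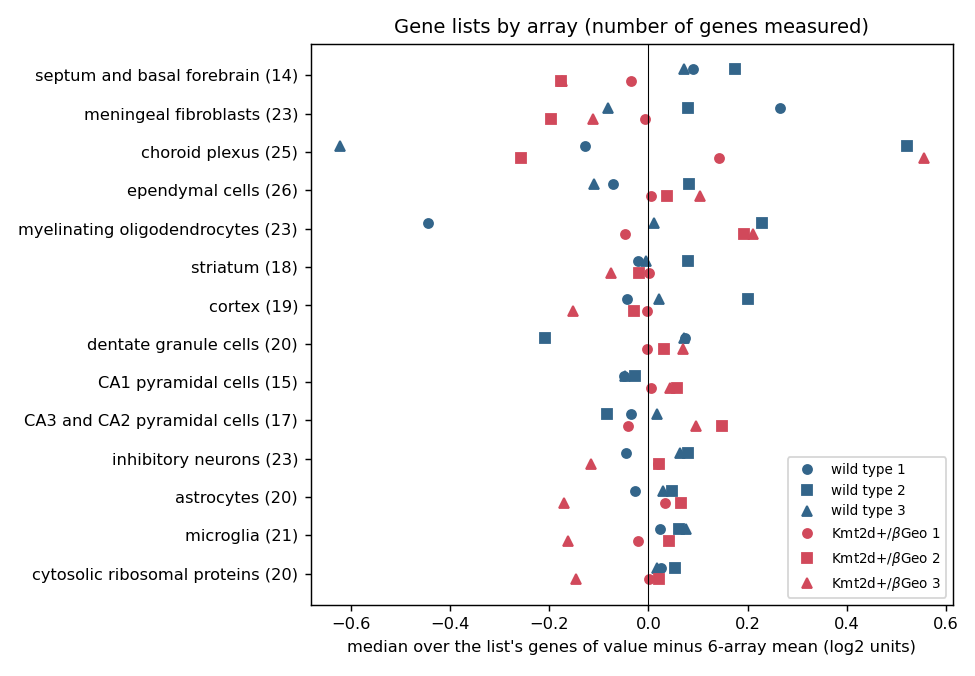
Median over each list's genes of the log2 value minus the mean of the 6 arrays (x axis), for each mouse and 14 lists, with wild-type mice in blue, heterozygous mice in red and replicates 1, 2 and 3 as circles, squares and triangles; the number of genes measured is in brackets. The septal list is the one at the top, with wild-type mice at 0.07 to 0.17 and heterozygous mice at -0.18 to -0.03, while the choroid plexus list spreads from -0.62 to 0.56 within both genotypes.

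The neurons of the hippocampus itself gave small medians. Dentate granule cell genes were above 0 in 11 of 20 with a median of 0.01 that was -0.13 without wild-type replicate 2 and 0.10 without wild-type replicate 1, and Prox1 was at 8.97, 8.30 and 8.77 in wild-type and 8.21, 8.93 and 9.05 in heterozygous mice, a difference of 0.05 ± 0.22. In the uninjected mice 18 of the 20 were above 0 with a median of 0.31. CA1 genes were above 0 in 8 of 15 (median 0.04). Of these Zdhhc2, a palmitoyltransferase, differed by 0.56 ± 0.17, from 8.25 to 8.77 in wild-type and 8.81 to 9.39 in heterozygous mice. Grp, of the same list, lay the other way, at -0.40 ± 0.18. Without heterozygous replicate 3, Zdhhc2 was at 0.42 and Grp at -0.23. CA3 and CA2 genes were above 0 in 11 of 17 (median 0.03), among them Vcan, a proteoglycan of the extracellular matrix, at 8.36, 8.01 and 8.27 against 8.53, 8.75 and 8.91 with a difference of 0.52 ± 0.14. Mossy cell genes were above 0 in 3 of 9 (-0.13), and progenitor and immature neuron genes in 6 of 17 (-0.11), where Dcx, the marker of young neurons, differed by -0.02 ± 0.16 and Eomes, of intermediate progenitors, by -0.29 ± 0.16. Without wild-type replicate 3 the progenitor median was -0.003 and Eomes was at -0.12, and without heterozygous replicate 3 the mossy cell median was -0.06. Genes of dividing cells were above 0 in 12 of 25 (-0.01). Inhibitory neuron genes were above 0 in 9 of 23 (-0.08, but -0.001 without heterozygous replicate 3). Kcnc2, a channel subunit of fast-spiking cells, was at 9.76, 9.47 and 9.60 against 10.03, 10.11 and 9.88, a difference of 0.40 ± 0.12. Dlx6 and Nos1, of the same list, lay the other way, at -0.35 ± 0.14 and -0.30 ± 0.13. Outside the hippocampus, cortical genes were above 0 in 5 of 19 (-0.09), striatal genes in 5 of 18 (-0.05) and thalamic genes in 6 of 16 (-0.03). Lamp5 and Scnn1a, of cortical layers, differed by -0.44 ± 0.17 and -0.39 ± 0.13, and Lamp5 was at -0.27 without wild-type replicate 2. Without heterozygous replicate 3 the cortical median was -0.02 and the thalamic one 0.006. Of all 40 lists, 21 had a median that turned sign when 1 of the 6 mice was left out, so a small median gives no direction.

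Of the H3K4 methylation machinery, 12 of 23 genes were above 0 and 0 passed. Their median was 0.01, or 0.07 without heterozygous replicate 3 and -0.03 without heterozygous replicate 2. The demethylase Kdm1a was at 9.12, 9.04 and 9.18 in wild-type and 9.34, 9.44 and 9.72 in heterozygous mice, a difference of 0.39 ± 0.13. Kmt2c, the closest relative of Kmt2d, was at 9.44, 9.30 and 9.30 against 9.58, 9.70 and 9.58, a difference of 0.27 ± 0.11. In neither gene did the groups overlap. Over the list the groups were apart and higher in 2 of 23 genes and apart and lower in 4, Paxip1 among the latter. That is 26.1% of the list, against 4.31% of all genes apart and higher and 5.18% apart and lower. Of the subunits found with Kmt2d and Kmt2c but not with the other H3K4 methyltransferases, Paxip1 differed by -0.20 ± 0.12, Kdm6a by -0.23 ± 0.14, Ncoa6 by -0.18 ± 0.11 and Pagr1a by -0.15 ± 0.11. Of the core subunits common to all these complexes, Wdr5 differed by 0.12 ± 0.12, Rbbp5 by -0.04 ± 0.15, Ash2l by 0.01 ± 0.13 and Dpy30 by -0.10 ± 0.11. Kmt2a and Kmt2b differed by -0.06 ± 0.14 and 0.06 ± 0.12. Histone deacetylase genes were above 0 in 2 of 11 (median -0.06, and 0.01 without heterozygous replicate 3), with Hdac7 at -0.27 ± 0.14 and Hdac2 at -0.29 ± 0.23. Hdac7 was at -0.15 without heterozygous replicate 3, and Hdac2 at -0.01 without heterozygous replicate 1, -0.14 without wild-type replicate 1 and -0.55 without heterozygous replicate 3.

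The series is titled for a ketogenic diet, which these mice did not receive, and genes of ketone body metabolism were above 0 in 6 of 9 with a median of 0.07. Slc16a1, the carrier of ketone bodies and lactate, was at 7.28, 7.47 and 7.13 against 7.49, 7.55 and 8.03 and differed by 0.39 ± 0.16, or 0.22 without heterozygous replicate 3, while Bdh1 and Oxct1, which use ketone bodies, differed by -0.11 ± 0.13 and -0.09 ± 0.12. Cholesterol synthesis genes were above 0 in 11 of 20 (0.03), with Idi1 at 0.46 ± 0.13 and Hmgcs1 at 0.26 ± 0.11. Fatty acid oxidation genes were above 0 in 7 of 21 (-0.08), oxidative phosphorylation genes in 11 of 28 (-0.01), genes of glycolysis and the tricarboxylic acid cycle in 9 of 23 (-0.06) and genes of NAD metabolism in 7 of 19 (-0.05). Without heterozygous replicate 3 the medians of fatty acid oxidation and of NAD metabolism were both at -0.03, and that of the glycolytic list was at -0.0007. In the NAD list Nmrk1, a nicotinamide riboside kinase, differed by 0.46 ± 0.14 and the deacetylase Sirt1 by 0.33 ± 0.12, but Nnmt, which methylates nicotinamide, by -0.40 ± 0.14.

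Repeated injections can act as a stressor, and the stress and activity genes were read between genotypes, both of which were injected. Glucocorticoid-induced genes were above 0 in 5 of 17 (median -0.04), with Fkbp5 at 8.28, 7.84 and 7.73 against 8.29, 8.27 and 8.23 and a difference of 0.31 ± 0.14, and Nfkbia at -0.27 ± 0.11. Fkbp5 was at 0.20 without wild-type replicate 3 and 0.47 without wild-type replicate 1. Immediate early genes, which report recent activity, were above 0 in 12 of 23 (0.01), and Fos, Arc and Egr1 differed by -0.12 ± 0.13, 0.04 ± 0.19 and 0.14 ± 0.16. Wild-type replicate 1 was the lowest of the 6 mice for Arc, at 9.19, and for Egr1, at 8.33, and without it the median of the list was -0.11. Clock genes were above 0 in 6 of 18 (-0.06), with Nr1d1 at -0.35 ± 0.15. Inflammation genes were above 0 in 9 of 19 (-0.001), interferon-stimulated genes in 15 of 20 (0.13, and 0.06 without heterozygous replicate 1), heat shock genes in 6 of 13 (-0.03) and genes of the unfolded protein and integrated stress responses in 11 of 18 (0.05). Of the last, Hspa5, the chaperone of the endoplasmic reticulum, was at 10.08, 10.03 and 9.86 against 10.25, 10.31 and 10.45, a difference of 0.35 ± 0.12. GABA receptor genes were above 0 in 9 of 13 (0.04, but -0.02 without heterozygous replicate 2). Glutamate receptor genes were above 0 in 10 of 20 (0.003), with the kainate receptor Grik3 at -0.59 ± 0.19 and the NMDA receptor subunit Grin2a at 0.19 ± 0.11. Without heterozygous replicate 3 Grik3 was at -0.35. Cytosolic ribosomal protein genes were above 0 in 7 of 20 (-0.07, and -0.02 without heterozygous replicate 3), and the Xist and Y-linked genes in 3 of 4 (0.01).

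Whether the genotype difference itself differed between injected and uninjected mice was tested over all 13 arrays. No gene passed (0 of 19938, 0%; smallest limma adjusted p = 0.556), and 1298 had an unadjusted p under 0.05. Without the uninjected wild-type mouse of unknown sex 0 passed too (smallest adjusted p = 0.855) and 1077 had an unadjusted p under 0.05. Injections, RNA extraction (TRIzol with a spin column here, a Qiagen RNeasy kit in the other experiment) and experiment run together, so they cannot be told apart. Mpp7, a scaffold protein of cell junctions, was lowest in p: 6.64, 6.72 and 6.46 in injected wild-type and 6.89, 7.02 and 7.15 in injected heterozygous mice, a difference of 0.42 ± 0.12, against -0.35 ± 0.07 without injections. Zfp709 differed by 0.50 ± 0.12 with and -0.19 ± 0.08 without injections, and the ependymal Sntn by 0.30 ± 0.12 and -0.65 ± 0.14. Over all genes 9616 (48.2%) had the same sign in both experiments, and the correlation of the 2 differences across the 19938 genes, which are not independent, was r = -0.03, and without that mouse 49.2% and -0.009. Of the 12 higher genes of lowest p here, 9 had the same sign in the uninjected mice, and 5 of the 12 lower ones did, or 8 and 7 without that mouse.

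**Figure D4:**
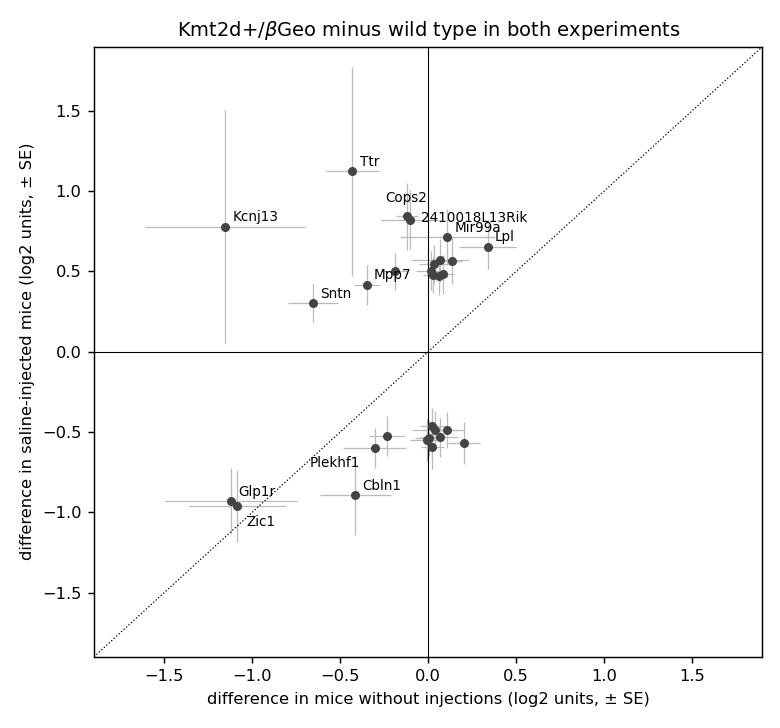
Genotype difference in saline-injected mice (y axis) against that in mice without injections (x axis), log2 units with SE bars from limma, for the genes of lowest p, the largest differences except Prl, and the 3 genes of lowest p between experiments; the dotted line marks equal differences. Zic1 and Glp1r lie near that line at about -1 on both axes, whereas Ttr, Kcnj13 and Sntn were above 0 with injections and below 0 without.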

How the data were processed

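Gene expression in whole hippocampus was measured on Affymetrix Mouse Gene 1.0 ST arrays, 1 per mouse. Total RNA of the 6 saline-injected mice was extracted with TRIzol and a spin column and that of the 7 others with a Qiagen RNeasy kit, and all of it was labelled with biotin with the Ambion kit for whole transcripts, as the labels' protocols say. The deposited values are log2 intensities made by the authors with RMA (background correction, quantile normalisation and median polish) from oligo, per the submitters' processing notes. Not given in the sources used here are versions and whether all 13 arrays were normalised in 1 run. Quantile normalisation gives the arrays a common distribution and so hides any change of total RNA. Pairs of the 6 arrays shared on average 140.5 probe sets equal to 4 decimals, which median polish can give, and no array pair was identical. Precision is limited by the number of arrays.

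Of 35556 probe sets, the platform annotation names 21789 with 1 gene symbol and 1621 with several, and 12146 stay unnamed here. Each of 19938 genes was represented by its brightest probe set over the 6 arrays (a choice for 999 genes), with no filter on dim genes. Heterozygous and wild-type mice were compared with limma 3.58.1 (lmFit and eBayes, R 4.3.3) on the 6 arrays alone, two-sided, with Benjamini-Hochberg adjustment over all genes and a threshold of 0.05. The difference between experiments came from a model of the 4 groups over all 13 arrays. Kmt2d was also compared by exact permutation of the 20 regroupings. The scripts were tested on simulated data. Replicates are separate mice per the labels.

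Named were Kmt2d, the 12 higher and 12 lower genes of lowest p, the 4 largest differences in each direction, in each list at most 3 members of lowest p and the 3 genes of lowest p between experiments. Other members named for their known roles were chosen after their values were seen. Of the 779 distinct members of 40 gene lists, 717 were measured. The rule, the lists and the comparison were chosen with earlier results of these data known. Alternatives were a 4-group model, a trended robust prior, array weights, another scaling, other probe set choices, a filter on dim genes, the replicate number as a block (statmod 1.5.0) and each array left out. Same-numbered wild-type and heterozygous arrays had deviations correlated at -0.21, -0.04 and -0.12, so the numbers were not taken to pair mice.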

Additional observations from a re-analysis of the deposited data

How the results depend on the processing

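In all 16 alternatives 0 genes passed the adjusted threshold, with limma's smallest adjusted p between 0.162 (4-group model over 13 arrays) and 1.00. At an unadjusted p under 0.05 there were 1008 genes, 2037 in the 4-group model, 1793 with array weights, and 625 to 1874 without 1 array at a time, the highest without heterozygous replicate 1, 1461 without wild-type replicate 1, 640 without wild-type replicate 3 and the lowest without wild-type replicate 2. With the replicate number as a block, 0 genes passed and 755 had an unadjusted p under 0.05, and no call changed. The difference between experiments had 0 genes past the threshold in each of its 10 alternatives, the replicate block included, and also without the uninjected mouse of unknown sex, a setting chosen after seeing the data. Every probe set tested on its own gave 0 of 35556, and 965 higher and 730 lower at an unadjusted p under 0.05, against 495 and 513 genes.

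The brighter Kmt2d probe set, at 0.06, gave -0.23 as the mean of both probe sets and -0.029 to 0.15 without each array, turning below 0 without wild-type replicate 1 or heterozygous replicate 1. The dimmer one stayed between -0.61 and -0.39. Kcnj13 ranged from -0.23 to 1.58 and Xist from -0.013 to 0.083 without each array. Of 2085 comparisons of the 144 genes that the naming rule gave beside Kmt2d, 2081 kept their direction and 0 passed the threshold. The count of kept directions was partly fixed in advance. Several settings do not alter a gene's difference, and the genes were chosen on these same arrays. Where the groups do not overlap, leaving out 1 array cannot turn the direction. Genes named only for their roles were not recomputed one by one. Of the 40 list medians, 21 changed sign without 1 array, 18 kept their sign in every setting, among them those of septum, meninges and ependyma, and 3 changed sign under another scaling, all within 0.03 of 0. The causes of these changes were not tested.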

Other observations

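Gene families were grouped by symbol after the values were seen, and their values carry no test. Of 347 zinc finger genes with Zfp symbols, 204 (58.8%) were above 0, against 47.0% of all genes, with a median difference of 0.03 that was 0.03 to 0.05 without each mouse. At an unadjusted p under 0.05, 27 of them (7.78%) were higher and 4 (1.15%) lower in heterozygous mice, against 2.48% and 2.57% of all genes. Without heterozygous replicate 3 these were 12 and 3. Zfp709 and Zfp101 were among the 12 higher genes of lowest p. In the uninjected mice the median of the Zfp genes was 0.019, close to the 0.015 over all genes there. Protocadherin genes were above 0 in 22 of 34 (64.7%) with a median of 0.02, which was -0.009 to 0.05 without each mouse, and small nucleolar RNA genes in 30 of 51 (58.8%) with a median of 0.04 and 4 (7.84%) higher at an unadjusted p under 0.05. Collagen genes were above 0 in 13 of 44 (29.5%) with a median of -0.05, olfactory receptor genes in 500 of 1027 (48.7%) with a median of -0.005, and microRNA genes in 138 of 300 with a median of -0.02.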
